A study of Rattus norvegicus with 3 samples.

Results

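Collagen is modified, folded and crosslinked by a set of enzymes and helpers, and 10 of their genes are described here: P4ha1 and P4ha2, Plod1, Plod2 and Plod3, Serpinh1, Pcolce, and Lox, Loxl1 and Loxl2. They were chosen by gene name on the array, 10 of 26115 gene names among the non-control probes. All 10 were on the array, through 11 probes printed as 21 spots, and 9 were measured, since Loxl1 was not well above background on any array.

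The cells were ROS17/2.8, an osteoblast-like line derived from a rat osteosarcoma, and the question was how inorganic polyphosphate, a chain of phosphate units, changes their gene expression. The control group received no polyphosphate, with no time given for it, the low-dose group received 0.01 mg/ml for 24 h, and the high-dose group received 1 mg/ml for 24 h. All groups shared confluent cells in mineralization medium with 10% serum, L-ascorbate phosphate (50 mg/ml as the labels state it) and 1 mM β-glycerophosphate. Each group is 1 one-colour array made from 50 ng of total RNA of the line, and the labels do not say how many wells went into it, which leaves every difference below without a replicate, an SD between samples or a test. The 3 arrays shared 1 slide, so an array's place on it and its dose cannot be told apart.

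The 75th percentile of the processed signal was 926, 964 and 937 at 0, 0.01 and 1 mg/ml, and 55.9% to 57.2% of 30367 probes were well above background. All 9 osteoblast markers were well above background on every array. Some markers of other cell types were not well above background on any array. They included Dmp1 and Phex (osteocyte), Acan and Col2a1 (chondrocyte), Adipoq (adipocyte), Ptprc (blood), Myod1 (muscle), and Kdr and Tek (endothelium). Other markers of these lists were well above background. On each array these were 3 of 4 blood markers, 3 of 4 muscle markers, 2 of 4 endothelium markers and 1 of 5 chondrocyte markers. For osteocytes they were 1 or 2 of 4, and for adipocytes 1 or 2 of 5. No member spot was saturated or flagged as an outlier.

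Newly made procollagen chains are hydroxylated in the endoplasmic reticulum, where prolyl 4-hydroxylase makes the 4-hydroxyproline that holds the triple helix together and lysyl hydroxylases make the hydroxylysines that carry sugars and mature crosslinks. The hydroxylases need iron, ascorbate, oxygen and 2-oxoglutarate. The folded helix is accompanied by the chaperone HSP47, its propeptides are cut off outside the cell, and lysyl oxidases, which are copper enzymes, start the crosslinking of the fibrils. Bone matrix is mostly type I collagen. In other mammalian cells P4ha1, P4ha2, Plod1, Plod2, Lox and Loxl2 are known as hypoxia-responsive genes, whereas Serpinh1 is known as a heat shock gene.

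The sequences below are from P4ha1, P4ha2, Loxl2 and Plod2, the members with the largest ratios of high dose over control. They also include those of Plod3, whose ratios were below 0, and of the chaperone. The probes that measured P4ha1 and Loxl2 are given first, 5′ to 3′ as in the array files. In rn4 the P4ha1 probe lies on the minus strand at chrUn:15080990-15084513, a span of 3524 bases for 60 bases of probe, and the Loxl2 probe lies on the plus strand at chr15:50067990-50068049. The other probes lie at chr10:39550587-39550646 (P4ha2), chr5:164987432-164987491 (Plod1), chr8:97622880-97622939 (Plod2), chr12:20866795-20866854 (Plod3), chr1:156667167-156667226 (Serpinh1), chr12:19672506-19672565 and chr12:19672572-19672631 (Pcolce), chr18:47898302-47898361 (Lox) and chr8:62088318-62088377 (Loxl1). Their place in exons or UTRs of rn4 was not analysed here.
P4ha1 probe: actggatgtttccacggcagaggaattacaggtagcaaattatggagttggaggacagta
Loxl2 probe: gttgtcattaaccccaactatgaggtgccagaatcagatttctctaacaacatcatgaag

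Promoter windows came from a RefSeq table of build GRCr8, which matched 8 of the 10 members and did not give Lox and Loxl2. Each line holds the 250 bases before the start site on the gene's strand, with capitals at every ACGTG or GCGTG on either strand, so that CACGT and CACGC mark a match on the other strand. ACGTG is the core of the hypoxia response element, and GCGTG is its other common form. The P4ha1 window is chr20:27844796-27845045 on the plus strand. Its start site and the whole window lie far inside the span that RefSeq gives the gene, chr20:27784696-27895785. The P4ha2 window is chr10:38743644-38743893 on the plus strand, the Plod2 window is chr8:101964068-101964317 on the plus strand, and the Plod3 window is chr12:25323632-25323881 on the minus strand.
P4ha1 promoter: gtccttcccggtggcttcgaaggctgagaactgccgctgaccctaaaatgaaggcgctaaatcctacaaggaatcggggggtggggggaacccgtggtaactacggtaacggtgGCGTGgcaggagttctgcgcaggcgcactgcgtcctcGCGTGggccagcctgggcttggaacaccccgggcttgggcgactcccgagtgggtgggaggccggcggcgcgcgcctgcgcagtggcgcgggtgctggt
P4ha2 promoter: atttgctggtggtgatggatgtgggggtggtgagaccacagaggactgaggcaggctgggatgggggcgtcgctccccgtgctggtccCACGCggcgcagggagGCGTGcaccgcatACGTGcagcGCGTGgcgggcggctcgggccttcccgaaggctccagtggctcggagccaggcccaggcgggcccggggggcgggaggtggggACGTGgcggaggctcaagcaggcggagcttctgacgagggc
Plod2 promoter: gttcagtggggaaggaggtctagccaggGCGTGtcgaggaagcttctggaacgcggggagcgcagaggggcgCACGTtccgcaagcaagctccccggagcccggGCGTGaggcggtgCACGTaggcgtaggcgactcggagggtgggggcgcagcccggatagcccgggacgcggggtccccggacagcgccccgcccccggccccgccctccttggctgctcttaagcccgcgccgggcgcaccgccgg
Plod3 promoter: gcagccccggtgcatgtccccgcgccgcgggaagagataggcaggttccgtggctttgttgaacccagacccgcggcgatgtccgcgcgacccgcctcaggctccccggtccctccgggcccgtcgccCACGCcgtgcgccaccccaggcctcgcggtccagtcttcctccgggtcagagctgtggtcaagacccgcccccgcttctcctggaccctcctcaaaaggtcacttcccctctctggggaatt

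ACGTG stood in 2 of the 8 matched promoters. In P4ha2 it lay 133 and 41 bases before the start, and in Plod2 it lay 178 and 133 bases before it. ACGTG was held by 16.6% of all 33469 promoters given there and by 22.8% of the 8454 with at least 60% GC. GCGTG stood in 6 of the 8, against 25.9% of all promoters and 53.2% of the GC-rich ones, and 7 of the 8 members had at least 60% GC. Plod3, the one member with ratios below 0, held a GCGTG 122 bases before its start, and P4ha1 held it 136 and 99 bases before its start with no ACGTG in the window. CACGTG, the E-box that overlaps ACGTG, was in 0 of the 8. A match of these letters is a description of the window and not a binding site.

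Serpinh1 is shown for its own known regulator, the heat shock factor, which binds inverted repeats of GAA. In the 60 bases before its start, chr1:163062977-163063036 on the minus strand, capitals mark TTCNNGAA and GAANNTTC, which share a GAA. As for P4ha1, this start site lies inside the span that RefSeq gives the gene, here chr1:163055630-163063177. The 60 bases therefore lie within that span too. The Serpinh1 start lies near the upper end of its span, whereas the P4ha1 start lies far from either end of its own.
Serpinh1 promoter, nearest 60 bases: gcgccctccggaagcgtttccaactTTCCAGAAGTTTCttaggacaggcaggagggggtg
TTCNNGAA began 35 bases and GAANNTTC 30 bases before the start. Each pattern stood in 3 of the 8 member promoters, so Serpinh1 was not alone: P4ha2 held TTCNNGAA 103 bases before its start, Plod1 held GAANNTTC 9 bases before it, and Plod2 held them 207 and 212 bases before it. Both patterns read the same on either strand. TTCNNGAA was in 7.48% of all promoters and 3.71% of the GC-rich ones, and GAANNTTC in 7.23% and 3.25%.

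Across the 9 measured members, 8 had a higher scaled signal at the high dose than in the control, as did 47.9% of all genes. Plod3 was the exception, though all 9 were higher, with 82.2% of all genes, when the arrays were centred on spike-in RNAs. The differences were small. The median log2 ratio of high dose over control was 0.14, beside a median of -0.01 and an SD of 0.20 over all 14495 measured genes, and P4ha1 alone was at least 1.2-fold higher (7.16% of genes were). No member was at least 1.2-fold lower (7.87% of genes were), and none was 2-fold apart (0.117% of genes were). These log2 ratios were taken after scaling each array to its 75th percentile. Each is given with a spot error, which covers measurement on the array and not the spread between cultures. It starts from the pooled SD between repeat spots of similar brightness, divided by the square root of the number of spots. It is then combined over both arrays and over the probes of a gene.

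At the low dose the median log2 ratio to the control was 0.03, beside 0.00 over all 14621 genes. No member was at least 1.2-fold higher (3.99% of genes were), none was at least 1.2-fold lower (5.08%), and none was 2-fold apart (0.116%). For high over low dose the median was 0.08, beside -0.01 over 14480 genes. Again no member was at least 1.2-fold higher (6.97%), 1.2-fold lower (6.13%) or 2-fold apart (0.076%). In bulk RNA a change in the share of cells of a type and a change in RNA per cell cannot be told apart.

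Counted by spot errors, 4 members lay more than 2 of them above 0 for high dose over control: P4ha1, P4ha2, Plod2 and Loxl2. Over all genes the share was 10.7%. For low dose over control these were P4ha1 and P4ha2, with 4.27% of all genes past the same limit, and for high over low dose P4ha1, P4ha2 and Loxl2, with 9.61%. No member lay more than 2 spot errors below 0, where 12.8% of all genes did for high dose over control, 4.56% for low dose over control and 10.6% for high over low dose. The comparisons share arrays, so their counts are not independent.

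The signal ran in the order control, low dose, high dose for 8 of the 9 members, whereas 19.8% of 14388 genes did so. The order held for all 6 hypoxia-responsive members and for Serpinh1 and Pcolce. The step to the low dose was within 1 spot error for 4 of these 8, at log2 ratios of 0.03 ± 0.06 for Plod1, 0.03 ± 0.12 for Lox, 0.01 ± 0.05 for Serpinh1 and 0.00 ± 0.04 for Pcolce. Serpinh1 lost the order under quantile normalization and Pcolce lost it when the percentile was taken over the probes above background, which left 7 of 9 in each case.

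**Figure D1:**
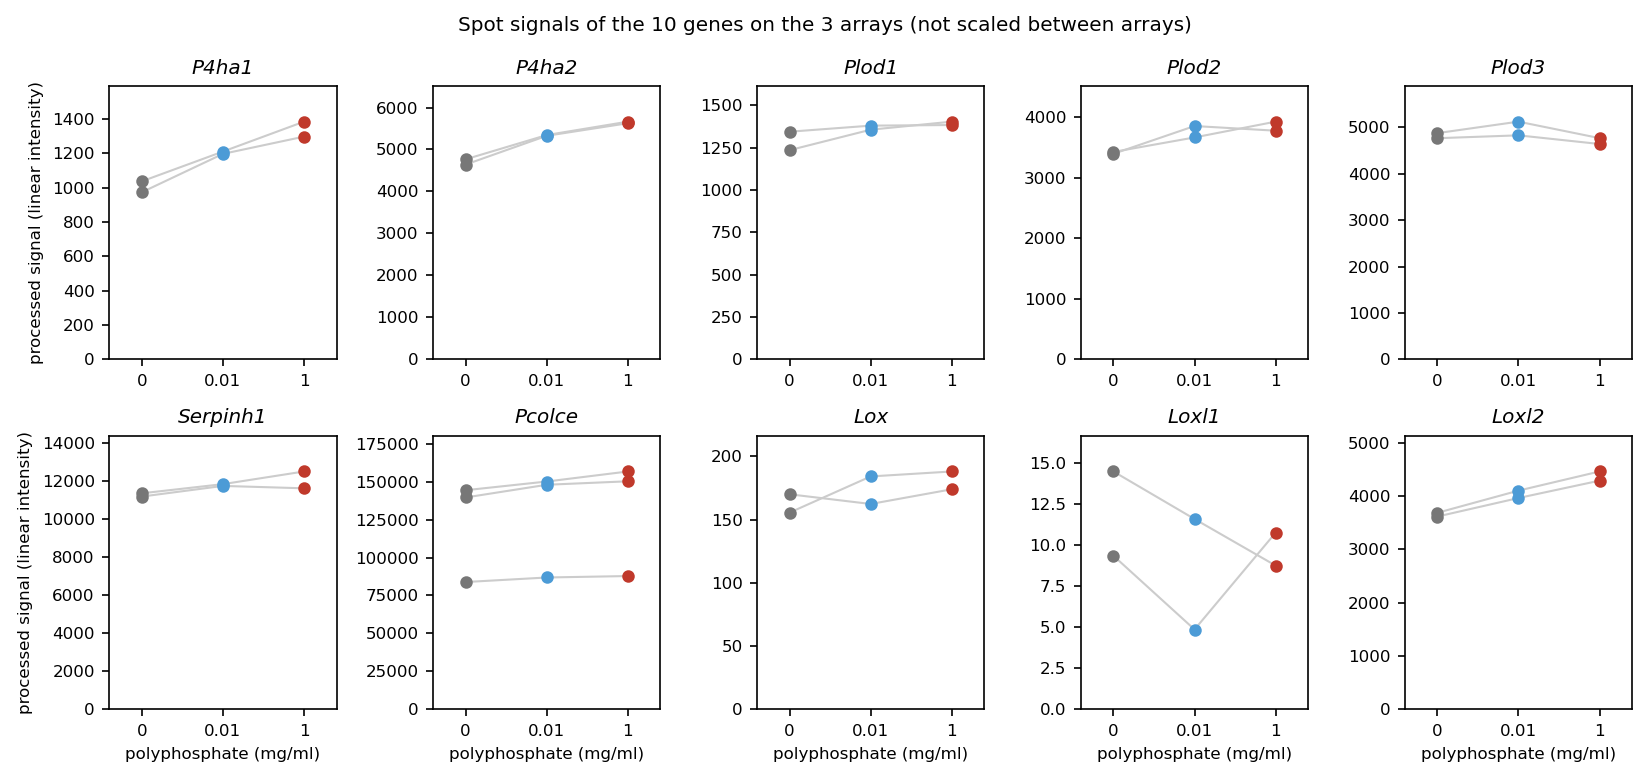
Processed signal of each spot of the 10 genes on a linear axis, as deposited and not scaled between arrays, at 0, 0.01 and 1 mg/ml polyphosphate, with a line joining the same spot position across arrays. Before scaling, every spot of P4ha1, P4ha2, Plod1, Pcolce and Loxl2 is higher at each step. Those of Plod3 are not, and no Loxl1 spot exceeds 14.5. The low-dose array is brighter as a whole, and the share of all spots higher at each step was not taken. After scaling, 1 of 2 Plod1 spots and 1 of 3 Pcolce spots lay above the control at the low dose.

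P4ha1 and P4ha2 encode the catalytic α subunits of prolyl 4-hydroxylase, which work bound to the β subunit, protein disulphide isomerase. Signals are given per spot and before scaling between arrays. The low-dose array was brighter as a whole, with a 75th percentile of 964 against 926 in the control and 937 at the high dose. Spots that do not overlap before scaling partly reflect this. The 2 spots of P4ha1 had processed signals of 1036 and 973 in the control, 1210 and 1196 at the low dose and 1384 and 1297 at the high dose. The spots of the 3 arrays did not overlap, and both spots were higher at each dose. After scaling, P4ha1 was 1.32-fold higher at the high dose than in the control, a log2 ratio of 0.40 ± 0.06 (spot error). It lay 0.20 ± 0.07 above the control at the low dose, and the high dose lay 0.20 ± 0.06 above the low dose. P4ha1 had the largest ratio of the members in all 3 comparisons, except that Loxl2 exceeded it for high over low dose under quantile normalization. It ranked 408th from the top among 14495 genes for high dose over control, and 0.6% of the 500 genes nearest in level were higher.

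P4ha2 gave 4640 and 4766 in the control, 5326 and 5344 at the low dose and 5626 and 5663 at the high dose. Its 3 pairs of spots did not overlap either. The high dose was 1.19-fold above the control (log2 0.25 ± 0.06), just under the 1.2-fold line, and the low dose lay 0.12 ± 0.06 above the control. The central 95% of the 500 genes nearest P4ha2 in level ran from -0.23 to 0.25, so its ratio lay at the upper edge and 2.6% of them were higher. P4ha1 exceeded P4ha2 by 0.15 ± 0.08, which was under 2 spot errors.

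P4hb encodes the β subunit they share. Its log2 ratio was 0.02 ± 0.05 for high dose over control (0.18 under spike-in centring) and 0.07 for low dose over control. Taken within the arrays, where scaling cancels, the ratio of high dose over control for P4ha1 exceeded that for P4hb by 0.38 ± 0.08, and P4ha2 exceeded it by 0.22 ± 0.08. The third α subunit, P4ha3, was read from 1 dim spot per array, with signals of 51.6, 30.1 and 28.0 at 0, 0.01 and 1 mg/ml, and its log2 ratio of -0.90 for high dose over control carried a spot error of 0.35.

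The Plod genes encode lysyl hydroxylases. Plod1 hydroxylates lysines of the helix, Plod2 those of the telopeptides where the pyridinoline crosslinks of bone start, and Plod3 also transfers sugars to hydroxylysine. Plod2 had signals of 3393 and 3424 in the control, 3852 and 3663 at the low dose and 3774 and 3924 at the high dose. Both doses lay above the control, while the spots of the 2 doses overlapped before scaling. The log2 ratio was 0.16 ± 0.06 for high dose over control, 0.08 ± 0.06 for low dose over control and 0.08 ± 0.06 for high over low dose. The Plod2 probe is listed for 2 RefSeq transcripts, so it does not separate the splice forms that differ in telopeptide activity.

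Plod1 read 1235 and 1344 in the control, 1356 and 1380 at the low dose and 1404 and 1384 at the high dose. The spots of the arrays did not overlap before scaling, yet its log2 ratio was 0.10 ± 0.06 for high dose over control and 0.03 ± 0.06 for low dose over control, both within 2 spot errors. Plod3 read 4876 and 4767 in the control, 5124 and 4829 at the low dose and 4768 and 4642 at the high dose. The control overlapped both doses, the low-dose spots lay above the high-dose spots before scaling, and Plod3 was the one member that was not higher at the high dose, with a log2 ratio of -0.05 ± 0.06 to the control and -0.04 ± 0.06 to the low dose. Centred on the spike-in RNAs in place of the percentile, the ratio to the control turned to 0.11.

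Differences between members on the same arrays do not depend on the scaling constant. Of 36 pairs of measured members, 12 differed by more than 2 spot errors for high dose over control. The number was 3 for low dose over control and 3 for high over low dose. Each of the 12 held P4ha1, P4ha2, Plod3 or Loxl2, so they are not separate results. The share of all gene pairs past this limit was not taken, so these counts only describe the members. The widest gap was P4ha1 over Plod3, at 0.45 ± 0.08 for high dose over control. Plod3 also lay 0.30 ± 0.08 below P4ha2, 0.30 ± 0.08 below Loxl2 and 0.21 ± 0.08 below Plod2. P4ha1 exceeded Plod2 by 0.24 ± 0.08.

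Serpinh1 encodes HSP47, the chaperone that binds the procollagen triple helix. It had signals of 11198 and 11369 in the control, 11759 and 11852 at the low dose and 11632 and 12519 at the high dose. Before scaling, both doses were above the control and overlapped each other. Its log2 ratio was 0.08 ± 0.05 for high dose over control, within 2 spot errors. For low dose over control it was 0.01 ± 0.05, within 1 spot error. Pcolce encodes the secreted glycoprotein that speeds removal of the C-propeptide by BMP1-type proteinases. Its first probe read 139637 and 144418 in the control, 148020 and 150160 at the low dose and 150307 and 156783 at the high dose, and its second read 83837, 86830 and 87788 in the same order. Both probes were in the bright range without saturation, and the 2 together gave 0.07 ± 0.04 for high dose over control and 0.00 ± 0.04 for low dose over control.

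The lysyl oxidases oxidise lysine and hydroxylysine side chains to the aldehydes that form crosslinks. Loxl2 had signals of 3618 and 3688 in the control, 3966 and 4105 at the low dose and 4293 and 4465 at the high dose. The 3 arrays did not overlap before scaling, as for P4ha1, P4ha2, Plod1 and the first Pcolce probe. The share of all probes without such overlap was not taken, so this only describes the members. The high dose was 1.19-fold above the control (log2 0.25 ± 0.06) and lay 0.16 ± 0.06 above the low dose, and the low dose lay 0.09 ± 0.06 above the control. Among the 500 genes nearest in level, 2.2% had a higher ratio of high dose to control. Their central 95% ran from -0.25 to 0.24, just below Loxl2.

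Lox, the founding member of the family, had the widest spot error of the measured members. Its spots read 155 and 170 in the control, 184 and 162 at the low dose and 188 and 174 at the high dose. The low dose overlapped both other arrays, and the log2 ratio of 0.14 ± 0.12 for high dose over control was close to its spot error. Loxl1, which acts mainly on elastin, gave 14.5 and 9.33 in the control, 11.6 and 4.84 at the low dose and 8.73 and 10.7 at the high dose, none of it well above background, so no ratio is given.

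**Figure D2:**
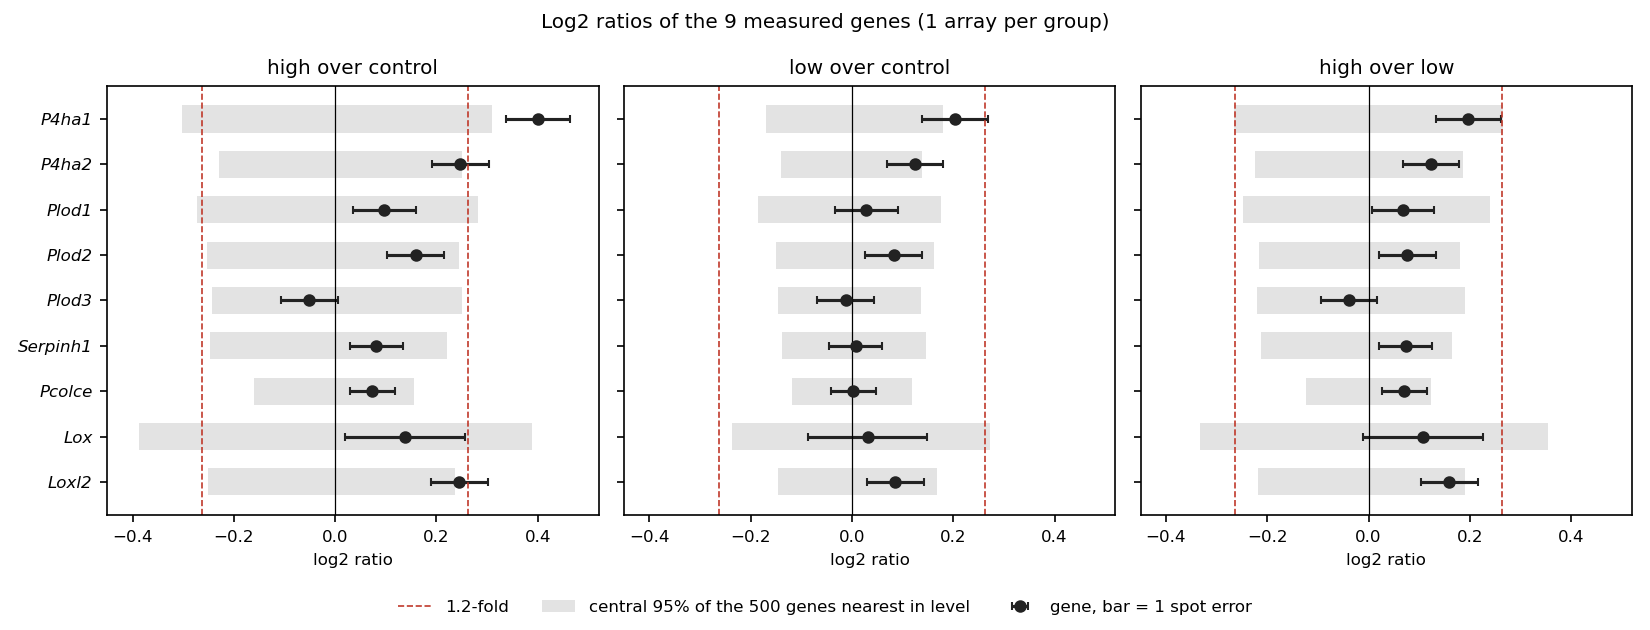
Log2 ratios of the 9 measured members for high dose over control, low dose over control and high over low dose, with bars of 1 spot error and, behind each, the central 95% of the 500 genes nearest in level. P4ha1 lies at 0.40 in the first panel, outside that range, and Plod3 at -0.05.

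Grouped by what is known of them, the 6 hypoxia-responsive members had a median log2 ratio of 0.20 for high dose over control, 0.08 for low dose over control and 0.11 for high over low dose. The other measured members, Plod3, Serpinh1 and Pcolce, had medians of 0.07, 0.00 and 0.07 in the same comparisons. The 4 members more than 2 spot errors above the control at the high dose all came from the first group. That group holds 6 of the 9 measured members, and 10.7% of all genes lay past the same limit. Whether the groups differ was not tested. Oxygen in the wells and HIF protein were not measured.

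The collagen chains that these enzymes act on had a lower median ratio of high dose over control than the measured members, though the ranges overlapped. Of 9 measured chains, 8 were below the control at the high dose (52.1% of all genes were), with a median log2 ratio of -0.11, which turned to 0.04 with 3 below the control (17.8% of all genes) under spike-in centring. None was 1.2-fold lower or higher, beside 7.87% and 7.16% of all genes. At the low dose their median was -0.01. Col1a1, the α1 chain of type I collagen, had a ratio of -0.23 ± 0.05 for high dose over control and -0.01 for low dose over control. The first was -0.07 under spike-in centring and -0.28, past 1.2-fold, with its brightest probe. After percentile scaling Col6a1 was the one chain above the control at the high dose, at 0.24, a ratio that was 0.16 with normexp background correction and 0.40 under spike-in centring. Within the arrays the ratio of high dose over control was compared with that of Col1a1. P4ha1 exceeded it by 0.63 ± 0.08, Loxl2 by 0.47 ± 0.08 and Plod3 by 0.18 ± 0.08. Col1a2, the other chain of type I collagen, had a ratio of -0.08 ± 0.05 in that comparison. P4ha1 exceeded Col1a2 by 0.48 ± 0.08 and Loxl2 by 0.33 ± 0.08, whereas Plod3 differed from it by 0.03 ± 0.08, under 1 spot error.

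Other genes of collagen modification and export gave 27 measured of 35 listed. Their median log2 ratio was -0.07 for high dose over control (0.09 under spike-in centring), 0.01 for low dose over control and -0.06 for high over low dose. For high dose over control 1 was at least 1.2-fold higher and 5 were at least 1.2-fold lower, against 7.16% and 7.87% of all genes. The one that was higher was Leprel1, which encodes prolyl 3-hydroxylase 2. Its spots read 853 and 860 in the control, 1026 and 1011 at the low dose and 1130 and 1059 at the high dose, a log2 ratio of 0.34 ± 0.07 for high dose over control. Leprel1 thus had the same order over the doses as P4ha1.

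Creb3l1, which encodes the endoplasmic reticulum stress sensor OASIS that drives Col1a1 in mouse osteoblasts, was among the lower ones. Its spots read 11215 and 11278 in the control, 11663 and 12086 at the low dose and 8711 and 8722 at the high dose. The low-dose spots lay above the control and the high-dose spots below it, with log2 ratios of -0.38 ± 0.05 for high dose over control and 0.02 for low dose over control. Under spike-in centring the first was -0.23, which did not reach 1.2-fold. Loxl4, another lysyl oxidase, had -0.31 ± 0.09 for high dose over control and 0.02 for low dose over control, against 0.25 for Loxl2 for high dose over control. Its 2 probes read -0.43 and -0.18 in that comparison, and the 1.2-fold call was lost with the brightest probe (-0.18), with normexp (-0.18) and under spike-in centring (-0.15). The other lower genes, P4ha3, Tll2 and Slc23a2, were dim, with spot errors between 0.26 and 0.35. With normexp P4ha3 was -0.35, Tll2 -0.22 and Slc23a2 -0.08, and under spike-in centring Slc23a2 was -0.17. For low dose over control 0 were 1.2-fold higher (3.99% of all genes) and 1 was lower (5.08%), and for high over low dose 0 were higher (6.97%) and 4 were lower (6.13%).

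Further 2-oxoglutarate oxygenases, which share the cofactors of the hydroxylases, were measured for 9 of 13 listed. Their median was 0.10 for high dose over control, which turned to -0.01 with normexp background correction and to -0.04 with the brightest probe of each gene, and 0.10 for low dose over control. For high over low dose it was -0.04, with 4 of 9 above 0. Kdm6b, a histone demethylase, had 0.49 ± 0.05 and Egln1, the oxygen sensor of the HIF pathway, had 0.28 ± 0.07 for high dose over control. These were the 2 at least 1.2-fold higher, named after their values were seen (7.16% of all genes), and none was as much lower (7.87%). With normexp Egln1 was 0.23 and did not reach that fold, and under spike-in centring it was 0.44. For low dose over control 0 passed it in either direction (3.99% and 5.08%), and for high over low dose 1 was higher (6.97%) and 1 lower (6.13%).

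**Figure D3:**
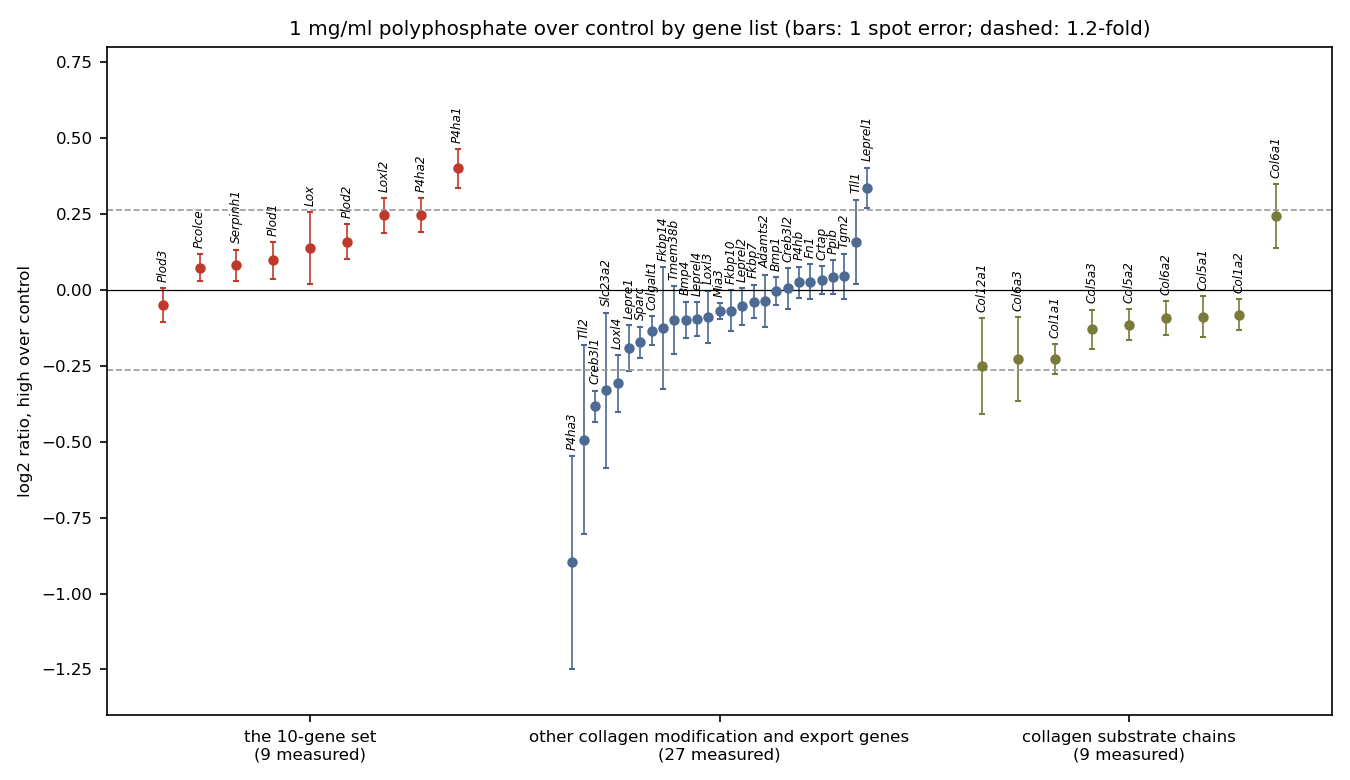
Log2 ratio of high dose over control after percentile scaling, 1 point per measured gene with a bar of 1 spot error, for the 10-gene set (9 measured), other collagen modification and export genes (27) and collagen chains (9), with dashed lines at 1.2-fold. The medians are 0.14, -0.07 and -0.11, and centring on the spike-in probes turns them to 0.30, 0.09 and 0.04.

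The genes whose 2 ratios to the control were nearest to those of P4ha1 were sought among 7271 genes of at least median level. They were Anlnl1, Dnajc5, Gys1, LOC499602 and Fam63b, at distances of 0.011 to 0.029 on the log2 scale. For P4ha2 they were Aldoa, at a distance of 0.00052, an unnamed Ensembl transcript, Fam162a, Tenc1 and Tmx1. The spot errors of these ratios, 0.06 and 0.07 for P4ha1 and 0.06 for P4ha2, were larger than every distance. The order among such near genes therefore lies within measurement error. Both ratios share the control array, and each pattern rests on 3 arrays.

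The choice of scaling moved the level of every member together. Centred on 8 spike-in probes, which read 0.16 lower on both dose arrays than on the control array (mean log2 ratio, SD over probes 0.03 for the high dose and 0.05 for the low dose), all member ratios to the control went up by 0.16. The median of all genes moved with them, to 0.15 for high dose over control and 0.16 for low dose over control, beside member medians of 0.30 and 0.19. With that centring 9 of 9 members were above 0 for each dose over the control, as were 82.2% of all genes for the high dose and 89.1% for the low one. The number at least 1.2-fold higher was then 5 for high dose over control, with 23.1% of all genes, and 2 for low dose over control, with 16.2%. The ratios of high over low dose moved by less than 0.01, and the differences between members stayed as they were.

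**Figure D4:**
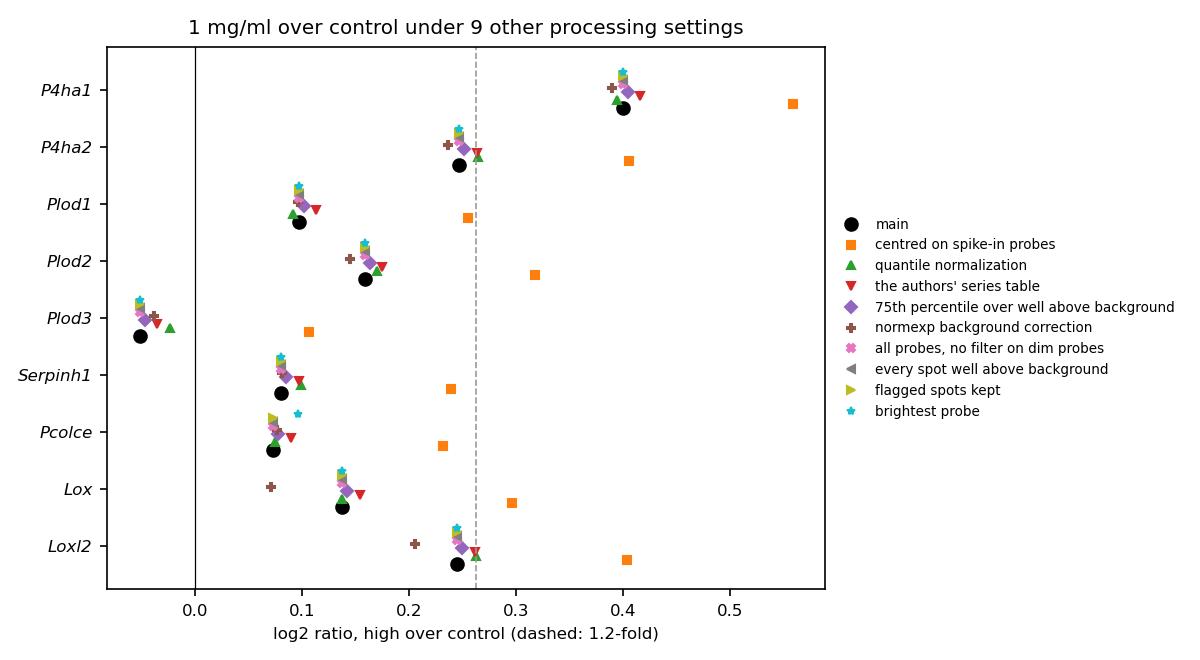
Log2 ratio of high dose over control of each measured member, with 1 marker for the main processing and 1 for each of 9 alternatives, and a dashed line at 1.2-fold. Centring on the spike-in probes lifts every ratio by 0.16, and P4ha1 is highest and Plod3 lowest under each setting shown.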

How the data were processed

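The authors deposited scanner files whose intensity values come from Feature Extraction 10.7.3.1, protocol GE1_107_Sep09, array design 028279 with rn4 coordinates, per the file headers. The processed signal is background-subtracted and was not normalized between arrays. The deposited flags (0 or 1) mark spots well above background, saturated and outlying. The authors' deposited series table holds a ratio, here found to be the processed signal over 1 constant per array (control 823, low dose 849, high dose 823, with column medians of 0.0737, 0.0731 and 0.0734), and served as an alternative.

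Outlier spots were left out, each array was scaled to its 75th percentile, log2 was taken, spots of a probe were averaged, and probes of a gene well above background in at least 50% of spots on both arrays were averaged. Spot errors came from repeat spots pooled in 20 bins of level. With 1 array per group there is no test; 1.2-fold, with 2-fold beside it, describes size. The calculation was tested on simulated data. Python 3.11.15, pandas 2.3.3, R 4.3.3 and limma 3.58.1 were used. Gene names are those of the array files.

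The members and lists were chosen with earlier results of these data known. All members are named. Other collagen modification and export genes are named when past 1.2-fold, at most 6 per comparison. P4hb, Col1a1, Col1a2 and Col6a1 are named outside that rule, and Col6a1 was picked by its value. Alternatives covered scaling, background correction, dim probes, outlier flags, probes per gene and fold threshold. The number of arrays limits the precision.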

Additional observations from a re-analysis of the deposited data

How the results depend on the processing

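Of 243 member ratios recomputed under the alternatives, 225 moved by less than 1 spot error and 18 moved by more, all of them ratios to the control under spike-in centring. With that centring the median of the members was 0.30 for high dose over control and 0.19 for low dose over control, and the members at least 1.2-fold higher numbered 5 and 2 in those comparisons, beside 23.1% and 16.2% of all genes. Quantile normalization and the authors' deposited table each gave 2 members higher at the high dose than in the control, P4ha2 beside P4ha1. A 2-fold threshold gave 0. Without the filter on dim probes Loxl1 entered, and it made 1 lower for high dose over control, 1 lower for low dose over control and 1 higher for high over low dose. No ratio past 1.2-fold reversed. The signs of Plod3, Serpinh1 and Pcolce at the low dose lay within their spot errors and varied with the scaling. No paired analysis was possible because each group holds 1 array. Loxl1 was limited by signal at background.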
